A study of Mus musculus with 2 samples.

Results

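The apolipoproteins encoded outside the main gene clusters, and the proteins that assemble and remodel lipoproteins, were examined in newborn mouse liver through 7 genes, Apob, Mttp, Apoa2, Apoh, Apom, Lcat and Pltp. They were taken by name from the 43346 genes listed in each deposited table, and all 7 were matched. The tissue was the liver of mice of strain B6NCrl on postnatal day 0, as 1 library from pup 1 and 1 library from pup 3. Each library was made from 13 pg of tissue RNA longer than 200 nt, about the content of 1 cell, with spike-in RNAs added. No genotype change or treatment is listed, sex was not collected, and both libraries carry the same donor entry. With a single group there was no contrast to test, so levels are given per library and as mean ± SD (n = 2), with ratios of pup 1 over pup 3 as descriptions. Nothing in the labels says whether the spread between the libraries comes from the animals or from the handling of so little RNA.

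Lipoproteins carry fat and cholesterol through blood as particles coated with apolipoproteins. Hepatocytes build very-low-density lipoprotein around 1 apolipoprotein B molecule, which is loaded with lipid in the endoplasmic reticulum by the microsomal triglyceride transfer protein (Mttp) bound to its partner P4hb. Apoa2 and Apom ride on high-density lipoprotein and Apoh binds lipid surfaces in plasma, while the enzyme Lcat and the transfer protein Pltp remodel high-density lipoprotein after secretion. Suckling begins at birth and brings a fat-rich diet to the liver.

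The libraries held 56959836 (pup 1) and 35973980 (pup 3) expected counts, the estimated reads per feature, of which spike-ins took 3.76% and 3.28%. A count of 0 allowed up to 0.0547 CPM in pup 1 and 0.0862 CPM in pup 3 (3 counts of the endogenous total, counting error only, since amplified reads are not independent molecules). Levels are in TPM, a length-corrected share of all transcripts, with spike-ins removed and the rest rescaled to a sum of 1000000. All 6 hepatocyte markers (Alb, Ttr, Afp, Ahsg, Trf and Fgb) were present, at a summed 132832 TPM in pup 1, against 103540 TPM in pup 3, and all 6 erythroid markers were seen in pup 1 and 5 of them in pup 3. Of 6 markers of intestinal epithelium, the other main site of Apob and Mttp expression, Vil1, Cdx1, Cdx2 and Cdh17 had no counts in either library, Lgals4 had 40.5 TPM in pup 1 but none in pup 3, and Fabp2 had 59.0 and 53.8 TPM. In tissue RNA, fewer cells of a type and less RNA per cell cannot be told apart.

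Several of these genes are known to make more than 1 transcript, and sequences at which the transcripts of Apob, Mttp and Apoa2 differ are shown first. Sequences were read from GENCODE M21 on GRCm38, the assembly also called mm10, except the Apoa2 promoter, which is from RefSeq on GRCm38.p6. The first pair spans the junction of exons 2 and 3 of Apob (chr12:7978232-7979275, plus strand, spliced), where capitals mark the 3 bases that the full-length transcript Apob-202 has and the short Apob-204 lacks.
Apob-202: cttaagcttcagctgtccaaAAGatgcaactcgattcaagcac
Apob-204: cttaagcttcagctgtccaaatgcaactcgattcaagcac

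The next pair gives the first coding exons of the 2 Mttp transcripts on the minus strand, Mttp-201 at chr3:138131240-138131300 and Mttp-202 at chr3:138134000-138134105, with the start codon in capitals. They differ in these exons and share every one of the 2624 bases compared from the following exon on.
Mttp-201: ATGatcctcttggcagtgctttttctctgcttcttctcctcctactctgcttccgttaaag
Mttp-202: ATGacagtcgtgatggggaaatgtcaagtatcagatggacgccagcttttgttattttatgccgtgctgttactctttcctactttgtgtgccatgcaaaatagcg

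For Apoa2 the promoter window chr1:171224804-171225103 (plus strand) holds the first bases of all 4 annotated transcripts, which are in capitals and belong, from left to right, to ENSMUST00000111321.3, ENSMUST00000005824.7, ENSMUST00000111320.3 and ENSMUST00000111319.1.
Apoa2: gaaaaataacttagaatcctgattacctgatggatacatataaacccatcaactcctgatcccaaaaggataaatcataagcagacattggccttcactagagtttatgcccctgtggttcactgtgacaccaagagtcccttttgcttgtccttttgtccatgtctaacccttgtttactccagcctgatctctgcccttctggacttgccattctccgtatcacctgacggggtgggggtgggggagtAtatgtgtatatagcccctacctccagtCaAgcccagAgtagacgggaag

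The last sequence is the place in exon 26 of the 29 exons of Apob where, in cells that edit it, a single C is changed to U and codon 2179 becomes a stop that yields the short apolipoprotein B of chylomicrons (chr12:8008039-8008083, plus strand). Capitals mark that C, at position 6666 of Apob-202, and the mooring sequence that the editing complex recognises 4 bases further on.
Apob editing site: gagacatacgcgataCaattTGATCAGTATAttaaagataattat

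Together the 7 genes made up 1.63% of endogenous TPM in pup 1 and 1.89% in pup 3, a mean of 1.76 ± 0.178%. The 8 clustered apolipoprotein genes, such as Apoa1 and Apoe, took 4.65% and 4.88%. Within the 7, most of the amount came from Apoa2 and Apoh, and the order by mean level was Apoa2, Apoh, Apom, Apob, Lcat, Pltp and Mttp. Apoa2, Apoh and Apom kept the first 3 places in each library, whereas Pltp stood above Mttp and Lcat in pup 1 and below both in pup 3. The plot of levels shows that the upper genes lay close between libraries and the lower ones far apart.

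**Figure D1:**
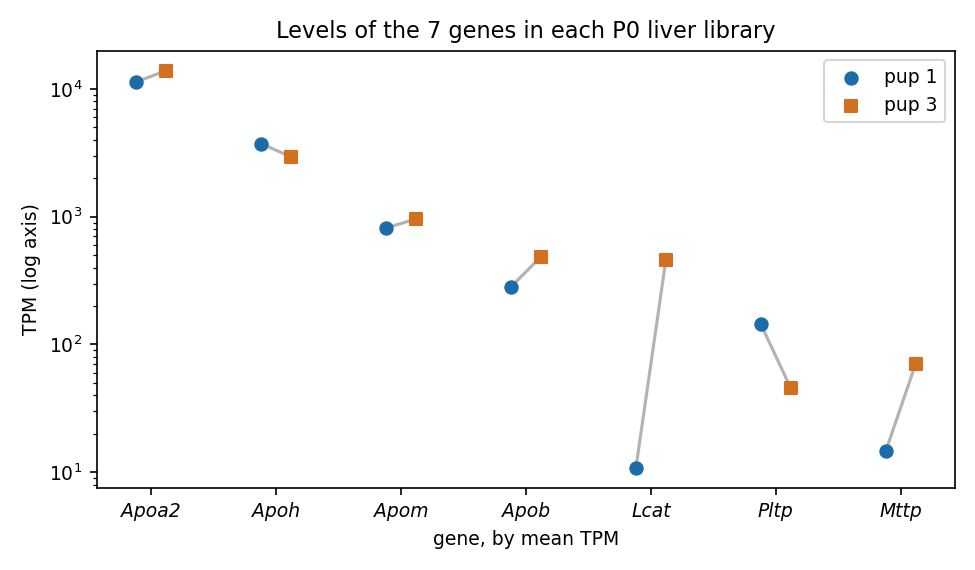
TPM of the 7 genes (log axis) in the library of pup 1 (circles) and of pup 3 (squares), each point 1 library, joined per gene and ordered by mean TPM. Apoa2 stands above 10000 TPM in both libraries, while Lcat spans 10.8 TPM in pup 1 to 461 TPM in pup 3.

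All 7 genes reached 1 TPM in both libraries, where 8.2% of all 43346 genes and 14.9% of protein-coding genes did. Between the libraries, 3 of the 7 differed more than 2-fold (Pltp toward pup 1, Mttp and Lcat toward pup 3), where 74.5% of the 8120 genes that averaged 10 or more expected counts did. By direction the 2-fold background was 38.5% toward pup 1 and 36% toward pup 3. That background depends on level, since 76.2% of genes averaging 10 to 100 TPM passed it, 35.1% of those from 100 to 1000 TPM and 14.6% of those at 1000 TPM or more. Neither Apoa2 nor Apoh, the 2 genes above 1000 TPM, passed 2-fold. Of the 3 genes at 100 to 1000 TPM, Lcat did and Apom and Apob did not, and below 100 TPM both Mttp and Pltp did. The median log2 ratio of TPM + 1 over the 7 genes was -0.29, with 5 of 7 higher in pup 3, against a median of 0.04 and 49.3% higher in pup 3 over the 8120 genes. Over the 1096 genes averaging 100 TPM or more, as 5 of the 7 do, the median was -0.11. Scaling by edgeR TMM factors brought the median of the 7 to -0.03. Those factors move the ratios of all genes by about 0.26 toward pup 1. The medians over the 8120 and the 1096 genes are given unscaled and would move the same way. The deposited credibility bounds belong to the posterior mean TPM, a second estimate of level, and reflect only the estimation from reads. They did not overlap between the libraries for any of the 7, nor for 91% of the 8120 genes.

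**Figure D2:**
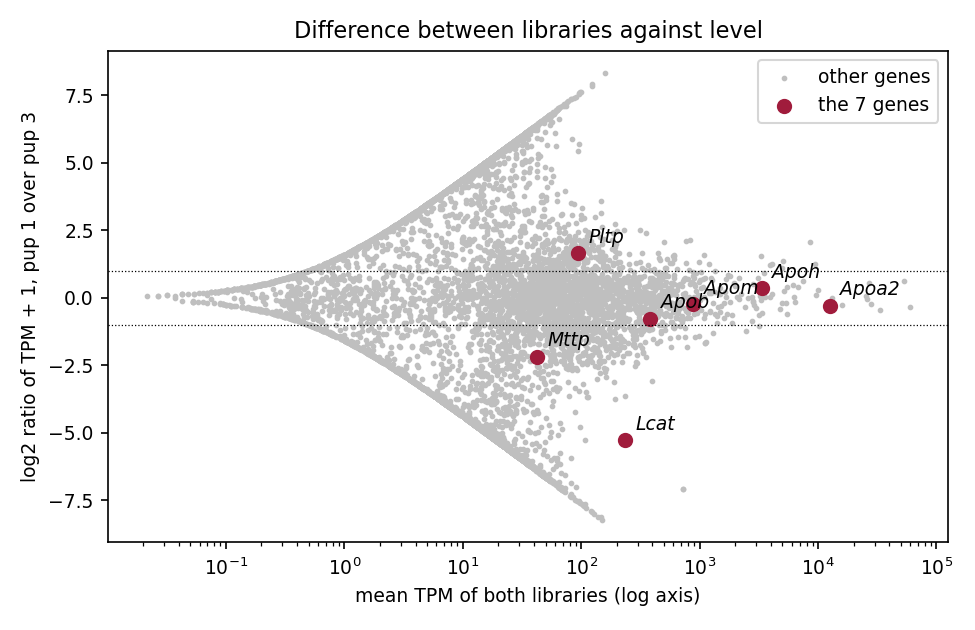
The log2 ratio of TPM + 1, pup 1 over pup 3, against mean TPM (log axis) for the 8120 genes averaging 10 or more expected counts (grey) and the 7 genes (red), with dotted lines at 2-fold. Lcat lies at -5.29, below most genes of its level, and Apoa2, Apoh and Apom lie between the dotted lines.

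Apoa2, a structural protein of high-density lipoprotein (ENSMUSG00000005681.8, chr1:171225054-171226379, plus strand), was the most abundant of the 7. It had 11328 TPM in pup 1, against 13892 TPM in pup 3, from 188838 and 159230 expected counts, a mean of 12610 ± 1813 TPM. That placed it 13th among all genes in pup 1 and 9th in pup 3. Its level was 0.438 times that of Apoa1, the main protein of the same particle, in pup 1 and 0.558 times in pup 3, and 0.779 and 0.795 times that of albumin. The log2 ratio of -0.29 became -0.03 with TMM factors.

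All 4 Apoa2 transcripts were counted in both libraries. They share 1 coding sequence of 306 bases and differ outside it, in their first base, the place where exon 2 begins and their last base. ENSMUST00000005824.7 carried 62.5% of the gene's TPM in pup 1 and 58.7% in pup 3, and ENSMUST00000111321.3, which starts 28 bases upstream of it, carried 31.5% and 34.9%. ENSMUST00000111319.1 held 4.51% and 4.36%, and ENSMUST00000111320.3 held 1.53% and 2.03%. The order of the 4 was the same in both libraries. RefSeq lists a further Apoa2 start 3518 bases upstream of that of ENSMUST00000005824.7, and none of the 4 transcripts begins there.

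Apoh, or beta-2-glycoprotein I, is a plasma protein that binds negatively charged lipid surfaces (ENSMUSG00000000049.7, chr11:108343354-108414396, plus strand). It had 3733 TPM in pup 1, against 2936 TPM in pup 3, from 170013 and 91700 expected counts, a mean of 3334 ± 564 TPM and a log2 ratio of 0.35. With Pltp it was 1 of the 2 genes that were higher in pup 1. Nearly all of it was Apoh-201, at 99.99% of the gene's TPM in pup 1 and 99.92% in pup 3. Of the 3 other annotated transcripts, which begin upstream, Apoh-202 had 2.51 expected counts in pup 1 against 15.6 in pup 3, Apoh-204 had 2.38 against 4.33, and Apoh-203 had none. Prkca, which overlaps Apoh by 575 bases on the other strand, had no counts in pup 1, against 15 in pup 3.

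Apom, a lipocalin that carries sphingosine-1-phosphate on high-density lipoprotein (ENSMUSG00000024391.7, chr17:35128997-35132050, minus strand), had the smallest difference of the 7 as deposited, 1.18-fold. It had 816 TPM in pup 1, against 959 TPM in pup 3, from 31138 and 25119 expected counts, a mean of 888 ± 101 TPM. The log2 ratio of -0.23 turned to 0.03 with TMM factors and to 0.03 with DESeq2 size factors, but was -0.44 with spike-in totals. Its direction depends on the scaling, so the data give none for Apom. A single transcript, Apom-201 of 6 exons, is listed. Of 7 listed genes of sphingosine-1-phosphate, 2 reached 1 TPM in both libraries, where 14.9% of protein-coding genes did. Of the 4 averaging 10 or more expected counts, 3 were past 2-fold, close to the 74.5% of all such genes. Sphk2, an enzyme that makes the lipid, had 25.6 TPM in pup 1, against 34.7 TPM in pup 3, and the receptor gene S1pr1 had 11.1 and 3.84 TPM. Sphk1, the second such enzyme, had 1 expected count in pup 1, against 2219 in pup 3 (68.5 TPM). The transporter genes Mfsd2b and Spns2 had no counts in pup 1, with 406 and 16 expected counts in pup 3, and the receptor genes S1pr2 and S1pr3 had none in either.

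Apob, the structural protein of very-low-density lipoprotein (ENSMUSG00000020609.10, chr12:7977648-8016835, plus strand), had 47289 expected counts in pup 1, against 78492 in pup 3. Its deposited estimate came to 283 TPM in pup 1, against 487 TPM in pup 3, a mean of 385 ± 144 TPM and a log2 ratio of -0.78. It was higher in pup 3 although that library was the shallower. This TPM depends on how reads were divided among 4 transcripts of very different length. Apob-202, the full-length transcript of 13934 bases, took 72.5% of the gene's counts in pup 1 and 88.3% in pup 3, yet 21% and 35.9% of its TPM. Apob-204, an incomplete annotation of 1118 bases in 9 exons, took 13.0% and 11.6% of the counts but 51.1% and 64.0% of the TPM, or 145 and 312 TPM. All 1118 of its bases lie within exons of Apob-202, and it is set apart there by the 3-base difference printed above. Apob-203, a 2174-base transcript of the 3' end in which 790 bases of the last exon are spliced out, had 6823 expected counts (78.8 TPM) in pup 1 but none in pup 3. Apob-201 had 33.3 and 101 expected counts.

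With every Apob read assigned to Apob-202, an alternative chosen after the data were seen, the gene came to 81.9 TPM in pup 1, against 198 TPM in pup 3, a mean of 140 ± 82.2 TPM. The deposited estimates are 3.45 times (pup 1) and 2.46 times (pup 3) these values. The ratio between the libraries was 1.72-fold as deposited and 2.42-fold in that reading, both toward pup 3. In either reading Apob stood above Mttp and below Apom in both libraries, but its mean was lower than that of Lcat when all reads were assigned to Apob-202.

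**Figure D3:**
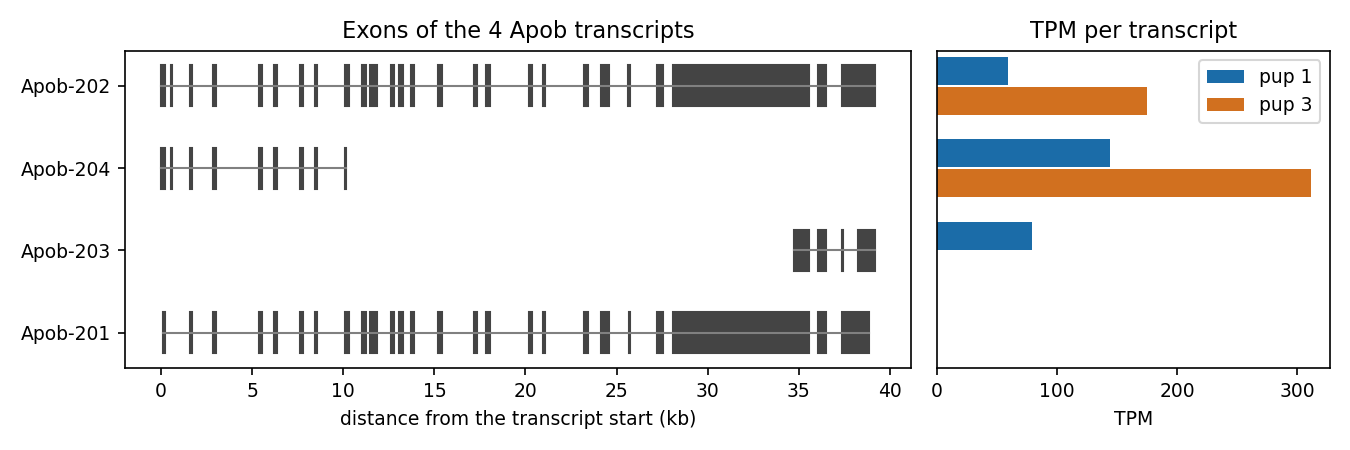
Left, exons (boxes) and introns (lines) of the 4 Apob transcripts against distance from the start of Apob-202 in kb; right, TPM of each transcript in pup 1 (upper bars) and pup 3 (lower bars), 1 library each. The short Apob-204 has the longest bar in both libraries, and Apob-203 has one in pup 1 alone.

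Whether Apob RNA was edited at the site printed above cannot be read from expression tables. Of the editing machinery, Apobec1, the enzyme that changes the C, had 1 expected count in pup 1 but none in pup 3. A1cf, an RNA-binding partner of that enzyme, had 35.3 TPM in pup 1, against 26.7 TPM in pup 3. In both libraries Apobec1 was below the 3-count floor. Mouse liver is known to edit this site, as intestine does.

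Mttp, the lipid-transferring subunit without which apolipoprotein B is not secreted (ENSMUSG00000028158.10, chr3:138089854-138144968, minus strand), was the lowest of the 7 on average. It had 14.7 TPM in pup 1, against 70.9 TPM in pup 3, from 2370 and 7842 expected counts. The mean was 42.8 ± 39.7 TPM, the difference 4.82-fold toward pup 3 and the log2 ratio -2.19. Its rank among all genes was 4122 in pup 1, against 1649 in pup 3. P4hb, its partner and also a general folding enzyme, was far more abundant, with 523 TPM in pup 1, against 755 TPM in pup 3, which is 35.5 and 10.7 times the level of Mttp. Apob as deposited was 19.2 times as abundant as Mttp in pup 1 and 6.87 times in pup 3, and with all reads on Apob-202 it was 5.57 and 2.79 times as abundant.

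Mttp-201 accounted for all Mttp counts in pup 1 and 99.85% of the gene's TPM in pup 3. Mttp-202, which starts 12011 bases upstream and has the other first coding exon printed above, had no counts in pup 1 and 12.8 expected counts in pup 3. Its length is 4272 bases in the deposited tables and 3072 in M21, so the exons shown for it are those of the later annotation. Trmt10a overlaps Mttp by 1521 bases on the other strand and had no counts in either library.

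Lcat, the enzyme that esterifies cholesterol on high-density lipoprotein (ENSMUSG00000035237.7, chr8:105939551-105943382, minus strand), differed most of the 7. It had 561 expected counts in pup 1, against 16412 in pup 3, which gave 10.8 TPM in pup 1, against 461 TPM in pup 3. The mean was 236 ± 318 TPM, so the SD exceeded the mean. The difference was 42.6-fold toward pup 3, with a log2 ratio of -5.29. Among the 993 genes with a mean of 100 to 1000 TPM, 1.81% were that far apart or farther. Lcat is itself counted there, and it reaches that range of mean TPM only through its level in pup 3. Its rank was 4393 in pup 1, against 271 in pup 3, where Apob ranked 428 and 250. Only 1 transcript, Lcat-201 of 6 exons, is listed, so no division among transcripts enters these values. Gm16156, an antisense gene that spans the whole of Lcat, had 1.19 expected counts in pup 1 but none in pup 3. Of the 6 hepatocyte markers, 3 were higher in pup 1 (Trf, Ahsg and Fgb) and 3 in pup 3 (Alb, Ttr and Afp), none past 2-fold, and their part in the differences of Lcat, Mttp and Apob was not tested.

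Pltp, which moves phospholipid between particles (ENSMUSG00000017754.9, chr2:164839518-164857711, minus strand), was higher in pup 1. It had 144 TPM in pup 1, against 45.3 TPM in pup 3, from 10300 and 2218 expected counts. The mean was 94.8 ± 70.0 TPM, the difference 3.18-fold toward pup 1 and the log2 ratio 1.65. Of 7 listed transcripts, Pltp-201 held 99.98% of the TPM in pup 1 and 98.3% in pup 3. A stretch of 1515 bases of its locus is shared with Ctsa, a lysosomal gene on the other strand, which had 39.3 TPM in pup 1, against 208 TPM in pup 3, the opposite order. Whether counting used strand is not stated, so reads from the shared stretch cannot be told apart, and the part of this overlap in the difference was not tested. Macrophages also express Pltp. Their 10 markers summed to 811 TPM in pup 1, against 1354 TPM in pup 3, with 7 of 10 at 1 TPM or more in both libraries and Adgre1, C1qc and Cd68 at no counts in pup 1. C1qb and Csf1r were higher in pup 1 and the other 8 in pup 3. Their part in the difference of Pltp was not tested.

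The wider lipoprotein pathway was represented by 71 further genes in 7 lists. Of these, 37 reached 1 TPM in both libraries, 9 in pup 1 alone, 5 in pup 3 alone and 20 in neither. Over all 43346 genes, 5742 reached it in pup 1, 5491 in pup 3 and 3555 (8.2%) in both libraries. Over protein-coding genes 14.9% did in both. The same background applies to the counts of the single lists below, in both libraries or in 1 alone. Among the 51 that averaged 10 or more expected counts, 26 differed more than 2-fold, 16 toward pup 1 and 10 toward pup 3, where over all such genes 74.5% did, 38.5% toward pup 1 and 36% toward pup 3. The median log2 ratio of the 51 was -0.01. The plot of these lists shows their levels in each library.

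**Figure D4:**
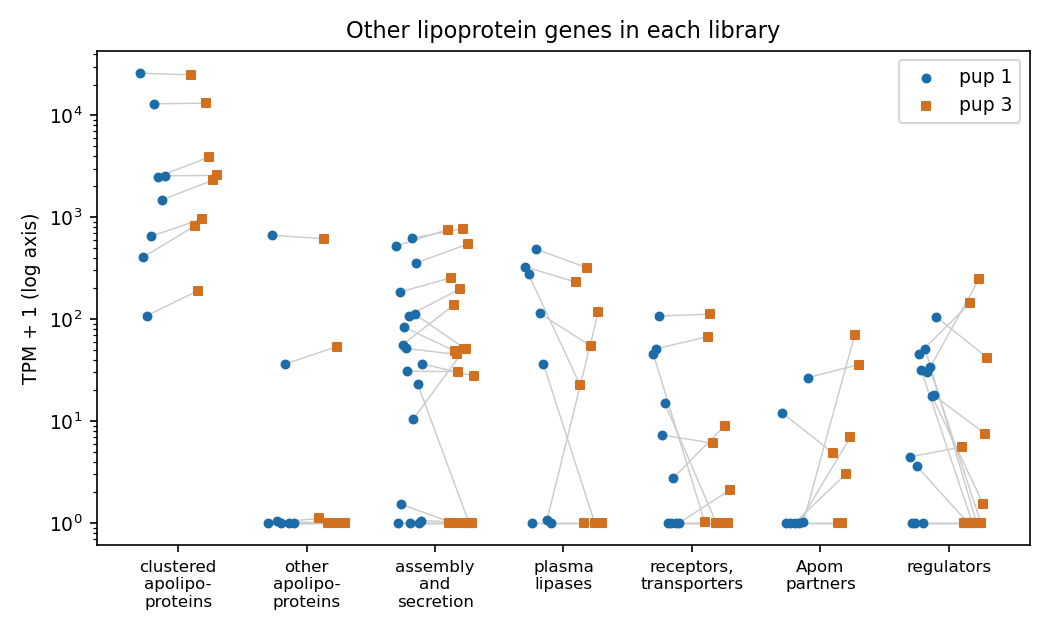
TPM + 1 (log axis) of the 71 other lipoprotein genes by list, each gene drawn as a joined pair of points for pup 1 (circles, left) and pup 3 (squares, right). The 8 clustered apolipoproteins lie above 100 TPM in both libraries, while the other lists reach down to genes with no counts.

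All 8 clustered apolipoproteins reached 1 TPM in each library, and 1 of 8, Apoc3, was past 2-fold, toward pup 3. The share past 2-fold was 35.1% for genes averaging 100 to 1000 TPM and 14.6% at 1000 TPM or more. Apoa1 stood at 25381 ± 656 TPM and Apoe at 13047 ± 134 TPM, so Apoa2 was close to Apoe in level. Apoc1, a small exchangeable apolipoprotein, had 2501 TPM in pup 1, against 3880 TPM in pup 3, and Apoc4 had 2542 and 2569 TPM. A list of 7 other genes with Apo symbols, not all of them apolipoproteins, included Apof, an inhibitor of lipid transfer in human plasma. Apof had 662 TPM in pup 1, against 613 TPM in pup 3, and Apon had 35.3 and 52.5 TPM. Apod and Apoo had 1 expected count in 1 library and none in the other, and Apool, Apobr and Apold1 had none.

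For particle assembly and secretion inside the cell, 12 of 18 genes reached 1 TPM in both libraries. Plin2, a coat protein of lipid droplets, led the list with 618 TPM in pup 1, against 773 TPM in pup 3. The esterase gene Aadac had 355 and 542 TPM, and Cideb, a droplet protein needed to load very-low-density lipoprotein with lipid, had 183 and 253 TPM. Acat2, an enzyme of acetoacetyl-CoA synthesis, had 22.1 TPM in pup 1 but none in pup 3, and Dgat1, which makes triglyceride, had 33 expected counts in pup 1 but none in pup 3. Tm6sf2, Sort1 and Soat2 had no counts in either library.

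Plasma lipases and their regulators had 6 of 8 genes with a mean of 10 or more expected counts, of which 5 were higher in pup 1 and the other in pup 3, where 49.3% of all such genes were higher in pup 3. The list median log2 ratio was 0.84, against 0.04 over all such genes. Hepatic lipase (Lipc) had 326 TPM in pup 1, against 228 TPM in pup 3. Lipoprotein lipase (Lpl), which the liver makes around birth and loses later, had 274 TPM in pup 1, against 21.6 TPM in pup 3. Angptl4 had 113 and 53.2 TPM, and Angptl8 had 35.5 TPM in pup 1 but none in pup 3. Gpihbp1, the endothelial anchor of Lpl, ran the other way, with 1 expected count in pup 1, against 2417 in pup 3 (116 TPM). The 7 endothelial markers summed to 335 TPM in pup 1, against 170 TPM in pup 3, and their members split. Stab2, Lyve1 and Clec4g were past 2-fold toward pup 1, with Clec4g at no counts in pup 3. Pecam1 (2.55 TPM in pup 1, 35.9 TPM in pup 3), Cdh5 (1.72 and 18.6 TPM) and Kdr (no counts in pup 1, 1.44 TPM in pup 3) were past 2-fold toward pup 3, as Gpihbp1 was. Their part in the difference of Gpihbp1 was not tested.

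Among 10 receptor and transporter genes, 4 reached 1 TPM in both libraries. The high-density lipoprotein receptor Scarb1 had 106 TPM in pup 1, against 111 TPM in pup 3, and the remnant receptor Lrp1 had 50.2 and 66.3 TPM. The cholesterol exporter Abcg1 had 13.9 TPM in pup 1 but none in pup 3. Vldlr, Lrp2 and Mylip had no counts in either.

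Of 13 transcription factor genes known to act on these genes in liver, 5 reached 1 TPM in both libraries and 5 in pup 1 alone. Ppara, a receptor for fatty acids, had 29.0 TPM in pup 1, against 244 TPM in pup 3, from 270 and 14265 expected counts. Its counts lay further apart than its TPM, and its transcripts were not examined. The oxysterol receptor gene Nr1h3 had 44.7 and 143 TPM. Xbp1, a regulator of secretory capacity, had 105 TPM in pup 1, against 40.7 TPM in pup 3. Hnf4a, an activator of Apob, Mttp and Apoa2, had 3.45 and 4.56 TPM. Nr0b2 stood at 49.8 TPM, Cebpa at 32.5 TPM, Nr1h4 at 30.8 TPM and Foxo1 at 2.60 TPM in pup 1, all with no counts in pup 3, while Foxa2 and Nr5a2 had no counts in either.

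For each of the 7 genes the gene nearest in level across both libraries was sought among the 8120, as the shortest distance between pairs of log2(TPM + 1), over 2 libraries only. The nearest were Afp to Apoa2 (distance 0.09), Apcs to Apoh (0.22), Acaa2 to Apom (0.10), Ndufa3 to Apob (0.11), Nipsnap3b to Pltp (0.06) and the pseudogene Gm15452 to Mttp (0.04). Lcat had no gene as close. Its nearest was Cfhr2, at a distance of 1.22, with 25.5 TPM in pup 1, against 360 TPM in pup 3.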

How the data were processed

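The labels' protocols name Ambion mirVana for extraction and SmartSeq for the libraries. Per the notes deposited with each library, values refer to mm10 with GENCODE M4. No source used here names the aligner or the program that estimated levels, or says whether counting used strand. The authors deposited expected counts, TPM, posterior mean TPM with credibility bounds (a score here) and isoform percent per transcript. Effective length is 99 bases below length. Gene names and positions came from GENCODE M21, which matched 42462 of the 43346 genes. Spike-ins were removed and TPM rescaled to 1000000; ratios are of log2(TPM + 1), a scale on which low genes differ less than they do in TPM, and fold differences are of TPM itself. Both libraries form 1 group, so no test was run, and edgeR and DESeq2 served only for scaling factors on rounded expected counts.

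The 7 genes and the lists were chosen with earlier results of these data known. All 7 are named, with up to 4 leading genes per list and every listed gene at 0 in exactly 1 library. Some listed genes are counted in their lists but not reported here by name. A1cf, Apoc3, Gpihbp1, Hnf4a and genes at 0 in both libraries were named after their values were seen. The arithmetic was checked on simulated counts. Assigning all Apob reads to its full-length transcript was added after the data were seen. Other alternatives covered units, thresholds, pseudocounts, scaling, depth and each library alone. The scaling used edgeR 4.0.16 and DESeq2 1.42.0 in R 4.3.3; tables and plots used pandas 2.3.3, numpy 2.4.6 and matplotlib 3.10.9 in Python 3.11.15.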

Additional observations from a re-analysis of the deposited data

How the results depend on the processing

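Of the values computed under alternatives for the 5 summary results, 33 stayed within the spread between libraries, or within 1.5 times for counts, and 3 moved. A share from 1 of 2 libraries lies within that spread by arithmetic, so those values could not move. A filter at 100 expected counts in both libraries kept all 7 genes, so it could not move the median. Assigning all Apob reads to Apob-202 left the median gene, Apoa2, untouched. The share of the 7 genes was 0.958% in CPM of expected counts, a unit with no correction for length. The median log2 ratio was -0.0321 with TMM factors and -0.0349 with DESeq2 size factors, each of which shifts log2 ratios by 0.26 toward pup 1. The ratio of Apom turned to 0.0288 with TMM factors and 0.0259 with DESeq2 size factors. Spike-in scaling shifted ratios by -0.20. Each library alone gave shares of 1.63 to 1.89%, 7 of the 7 genes at 1 TPM or more and 42 to 46 of the 71 pathway genes. The count past 2-fold was 3 or 4 of 7 under every alternative run, 4 with CPM, at 1.5-fold and with all Apob reads on Apob-202. For single genes and transcripts, 68 values stayed, 14 moved and 2 reversed. Levels from each library alone are among the 68 and stayed by the same arithmetic, Lcat included. Isoform percent from posterior mean TPM moved by at most 1.88 points, for Pltp-201. No paired analysis was possible because both libraries belong to 1 group. With 1 library per pup, the spread rests on a single difference per gene.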
